A study of Mus musculus with 2 samples.

Results

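The mouse microRNAs (miRNAs) with the numbers miR-6237 to miR-6420 are late entries of the miRNA registry. The array carried 95 of them among its 1881 mouse miRNAs (5.05%), on 2850 of 56430 spots and with 2 to 4 probes for each. All entries of the array with a number in this range were taken. They ran from miR-6237 to miR-6244 and from miR-6335 to miR-6420, with no entry of the array between these stretches. The range was chosen on the ratio of miR-6360 between the arrays, which was the lowest, so that ratio is given as a description.

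The RNA came from serum exosomes, which are small vesicles shed by cells, of C57BL/6 mice. The mice were females of 6 weeks at injection and carried subcutaneous tumours of Lewis lung carcinoma (LLC), a mouse lung cancer cell line. The LLC group received 1000000 LLC-luciferase cells, and the MSC+LLC group received these cells together with murine bone marrow-derived mesenchymal stem cells (BMSCs), so both groups carried the luciferase line and the comparison asks what the added BMSCs change in circulating exosomes. Serum was taken at a mean tumour volume of 200 mm3 (the labels say serum, the text of the study plasma), and 100 ng of total RNA was labelled with the dye Cy3. Each group had 1 array, so there was no replicate and no test, and a difference is one between the LLC array and the MSC+LLC array. How many mice gave serum to an array was not stated. One slide and 1 scan held both arrays, so position on the slide and group cannot be told apart.

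A miRNA is a short RNA that guides an Argonaute protein to messenger RNAs, mostly through its seed, bases 2 to 8 from the 5′ end. miRNAs with the same seed can share targets and are grouped as families. The registry numbers new miRNAs in the order in which they are submitted, so neighbouring numbers often come from the same sequencing survey and need not be related in sequence. Many late mouse entries were found by sequencing alone and have no established function.

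Mature sequences were found in RefSeq (GRCm38.p6) for 81 of the 95 members and for 11 of the 14 that were detected on at least 1 array. They are shown 5′ to 3′ with the seed in capitals. The first set holds members measured on both arrays, which carry the comparison of the groups.
miR-6366: aGCUAAGGggcccggggagcca
miR-6368: cUGGGAAGcaguggaggggag
miR-6418-5p: uCAGGGGAagggaagagaugc
The mature miR-6366 lies at chr16:18165093-18165114 on the minus strand, in its own miRNA gene and within the bounds of no other gene of the table. The mature miR-6368 lies at chr13:28710796-28710816 on the minus strand, within the bounds of the lncRNA gene 2610307P16Rik. The mature miR-6418-5p lies at chr5:137529551-137529571 on the minus strand, within the bounds of Gnb2, which encodes a beta subunit of G proteins. Whether these positions are exonic or intronic was not analysed here. The fourth member measured on both arrays is miR-6360.

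The second set holds the brightest members that were detected on the LLC array only, which show the sequence features described further on.
miR-6385: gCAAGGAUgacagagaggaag
miR-6370: gCAGGAACagcaaaggggaag
miR-6349: uGGAAUGUgggaggggcaugcg
miR-6394: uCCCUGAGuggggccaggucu
miR-6391: uGAGGCACgggaggacaaugu
The mature miR-6385 lies at chr9:58221155-58221175 on the plus strand, within the bounds of Pml, the gene of the protein that builds PML nuclear bodies. The mature miR-6370 lies at chr6:19555438-19555458 on the plus strand and miR-6349 at chr1:39186908-39186929 on the minus strand, both outside the bounds of any other gene of the table. The mature miR-6394 lies at chr7:96305740-96305760 on the plus strand within Tenm4, a teneurin of the cell surface. The mature miR-6391 lies at chr14:118592376-118592396 on the minus strand within Abcc4, an efflux transporter. The other members of this kind are miR-6238, miR-6348, miR-6378, miR-6388 and miR-6399.

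The MSC+LLC array was much dimmer than the LLC array. Over the probes detected on both, the 75th percentile was 2883 intensity units for LLC and 250.3 for MSC+LLC, a gap of 11.5-fold. The control RNAs added at hybridization differed by 0.038 on the log2 scale (MSC+LLC over LLC), and those added at labelling by -1.32. The part of the labelling in the gap was not tested. Both arrays had 100 ng of RNA, and these data hold no count of vesicles. Nothing is therefore read from the gap about the number of vesicles or the amount of a miRNA per vesicle. Ratios are therefore log2 of MSC+LLC over LLC after each array was divided by that percentile, and a ratio of 0 means that a miRNA followed the bulk of the array. Of 21 miRNAs listed as markers of blood cells, liver, muscle and mesenchymal stromal cells, the LLC array detected 20 and the MSC+LLC array 16. All 4 red cell markers were detected on both. Of the 6 mesenchymal markers, 5 passed detection for LLC and 4 for MSC+LLC, and miR-145a-5p passed for neither. The mesenchymal miR-143-3p passed for LLC only, as did miR-150-5p, miR-155-5p and miR-194-5p from the lists of blood cells and liver.

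Few of the late entries were detected on either array. Detection of a probe meant that over 50% of its spots stood well above background. On the LLC array 14 of 95 members (14.7%, exact Clopper-Pearson 95% interval 8.30 to 23.5) were detected, against 26.7% of all miRNAs on the array. On the MSC+LLC array 4 of 95 were detected (4.21%, interval 1.16 to 10.4), against 13.7% of all miRNAs. These 4 were also detected on the LLC array, and 12.8% of all miRNAs were detected on both. The late entries were thus below the background share on each array. The intervals cover counting error only, and the miRNAs of one array are not replicates.

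The other 10 detected members were seen on the LLC array only (10.5%, interval 5.16 to 18.5), against 13.9% of all miRNAs. None of the 95 was seen on the MSC+LLC array only, which allows a share of up to 3.81%. Of all 1881 miRNAs, 18 (0.957%) were seen there only, a share within that limit, so nothing is read from this 0. Of the members detected on the LLC array, 28.6% (4 of 14, interval 8.39 to 58.1) were also detected on the dimmer array, while 48.4% of the other miRNAs were (236 of 488, interval 43.8 to 52.9). These intervals overlap.

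Other number ranges were detected more often on the LLC array. The early entries, let-7 and miR-1 to miR-199, were detected in 42.7% there (122 of 286, interval 36.9 to 48.6), an interval that does not overlap that of the late entries. The range miR-5097 to miR-5136 reached 39.5% (15 of 38, interval 24.0 to 56.6), also without overlap. The range miR-6896 to miR-7094 was at 20.8% (83 of 400, interval 16.9 to 25.1), which overlaps the interval of the late entries. On the MSC+LLC array that range was at 7%, with an interval of 4.70 to 9.96 that again overlaps. There miR-5097 to miR-5136 reached 21.1% (interval 9.55 to 37.3), which also overlaps the interval of the late entries on that array. The early entries reached 28.7% there (interval 23.5 to 34.3), without overlap.

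**Figure D1:**
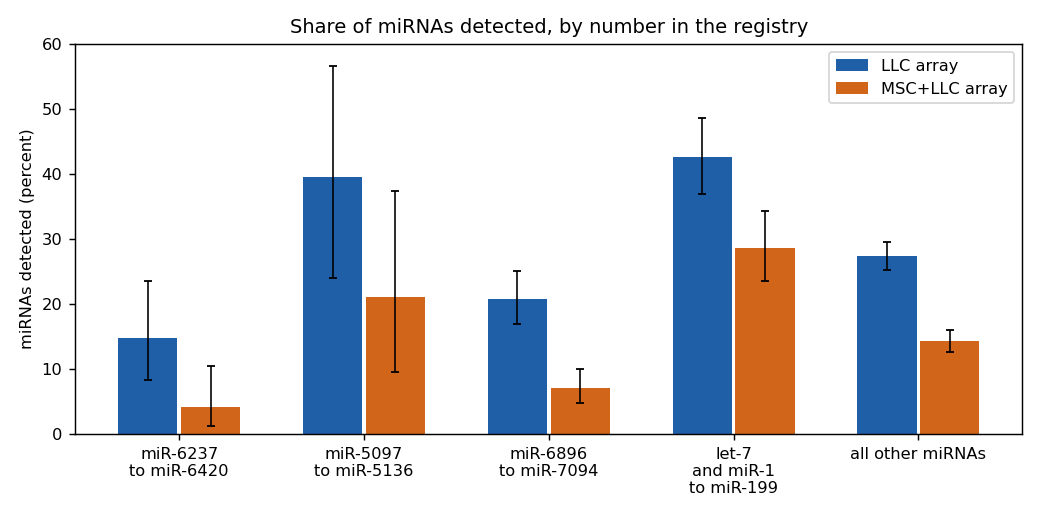
Share of miRNAs detected on each array (percent, vertical axis) for the members and for other ranges of registry numbers (horizontal axis), with exact 95% binomial intervals as error bars. The members reach 14.7% for LLC and 4.21% for MSC+LLC, and the early entries 42.7% on the LLC array.

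miR-6360 was bright on the LLC array and close to the detection limit on the MSC+LLC array. Its first probe read 13574 ± 1024 intensity units for LLC (SD over 14 spots) and 39.4 ± 5.55 for MSC+LLC (15 spots). Its second probe read 12683 ± 1044 (14 spots) and 33.9 ± 4.75 (15 spots). The spots of the first probe ran from 12106 to 14972 on the LLC array and from 29.7 to 48.8 on the MSC+LLC array, and the spots of the second probe lay as far apart. All spots of miR-6360 passed as well above background on both arrays. The lowest detected probe of the MSC+LLC array read 18.8.

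Before scaling, the probes of miR-6360 were 345-fold and 374-fold lower on the MSC+LLC array. At a scaled ratio of 0 they would have read 1178 and 1101 there. The scaled log2 ratio was -4.96 ± 0.16 (SD from the spread of spots), with -4.90 and -5.02 from the separate probes, so the probes differed by less than the spread between spots. This was the lowest ratio of the 240 miRNAs measured on both arrays, and the next one was -2.33. The gap between them is larger than the spread between spots, but no second array of either group measures the spread between mice or extracts. The 25 other miRNAs whose brightest probe on the LLC array lay within 2-fold of that of miR-6360 were all detected on both arrays, with ratios from -2.33 to 1.66 and a median of -0.06. This comparison was added after the values were seen. Because miR-6360 was picked as the lowest of the 240, all 25 had to lie above it. Nothing is read from that order.

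**Figure D2:**
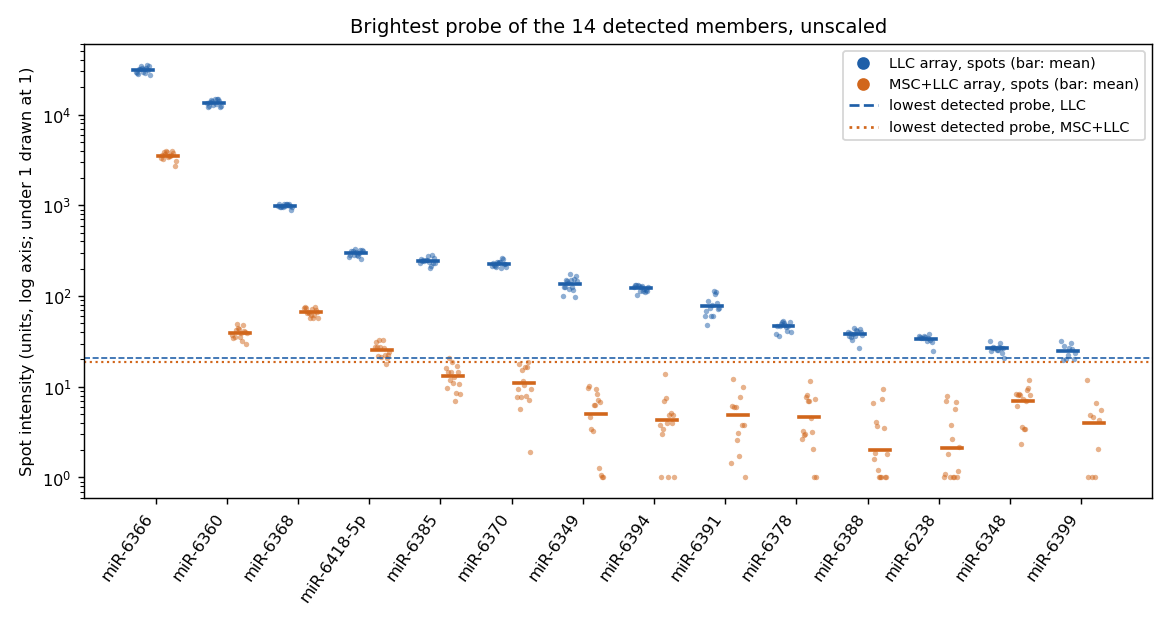
Unscaled intensity of each spot (log axis, spots under 1 drawn at 1) of the brightest probe of the 14 detected members (horizontal axis), with a bar at the mean of each array and a line at the lowest detected probe of each array. For miR-6360 the spots of the first probe lie between 12106 and 14972 on the LLC array and between 29.7 and 48.8 on the MSC+LLC array.

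The other members measured on both arrays, miR-6366, miR-6368 and miR-6418-5p, stayed within 2-fold after scaling. Over the 4 members the median log2 ratio was -0.17, and without miR-6360 it was -0.03, against 0.15 for the 240 miRNAs. Of the 4, 1 was at least 2-fold lower, against 11.2% of the 240, and 0 were at least 2-fold higher, against 27.1%. That member is the one for which the range was picked, so nothing is read from its count.

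The probes of miR-6366 read 31312 ± 2475 (15 spots) and 17546 ± 1575 (15 spots) on the LLC array. On the MSC+LLC array they read 3545 ± 354 (15 spots) and 2042 ± 87.9 (14 spots). The spots of the arrays did not overlap, and the raw values were 8.83-fold and 8.59-fold lower on the MSC+LLC array, less than the 11.5-fold gap of the arrays. The scaled log2 ratio of miR-6366 was therefore above 0, at 0.40, with 0.38 and 0.42 from the separate probes. It was -0.81 when arrays were scaled by all probes, which moves all miRNAs alike. Relative to the median of the 240 miRNAs it was 0.25 with scaling by 1 factor and 0.16 with quantile normalization.

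miR-6368 gave nearly the same reading from both probes. They read 990 ± 40.5 (15 spots) and 937 ± 39.8 (14 spots) on the LLC array, and 66.7 ± 6.93 and 67.1 ± 7.42 (15 spots each) on the MSC+LLC array. The raw values were 14.9-fold and 14-fold lower, a little more than the gap of the arrays. The scaled log2 ratio of miR-6368 was -0.32 ± 0.12 (SD from the spread of spots), and it turned to 0.25 with normexp background correction, which adds an offset to all values. Relative to the median of the 240 miRNAs it was -0.47.

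miR-6418-5p was measured on both arrays by 1 of its probes. This probe read 299 ± 23.3 (14 spots) for LLC and 25.5 ± 4.58 (14 spots) for MSC+LLC, where 92.9% of its spots were well above background. The other probe read 92.8 ± 10.3 for LLC and 5.33 ± 2.06 for MSC+LLC, where it was not detected. The scaled log2 ratio of miR-6418-5p was -0.03 ± 0.28, smaller than the spread between spots. Its sign turned to 0.01 with scaling by the median, and normexp gave 1.2. Lower values came with the scanner software's flag (-0.43), quantile normalization (-0.58), the software's summed signal (-0.36) and the deposited values (-0.73). At a scaled ratio of 0 the probe left out would have read 8.05 on the MSC+LLC array, against its 5.33. The other arm of the same hairpin, miR-6418-3p, was not detected on either array.

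**Figure D3:**
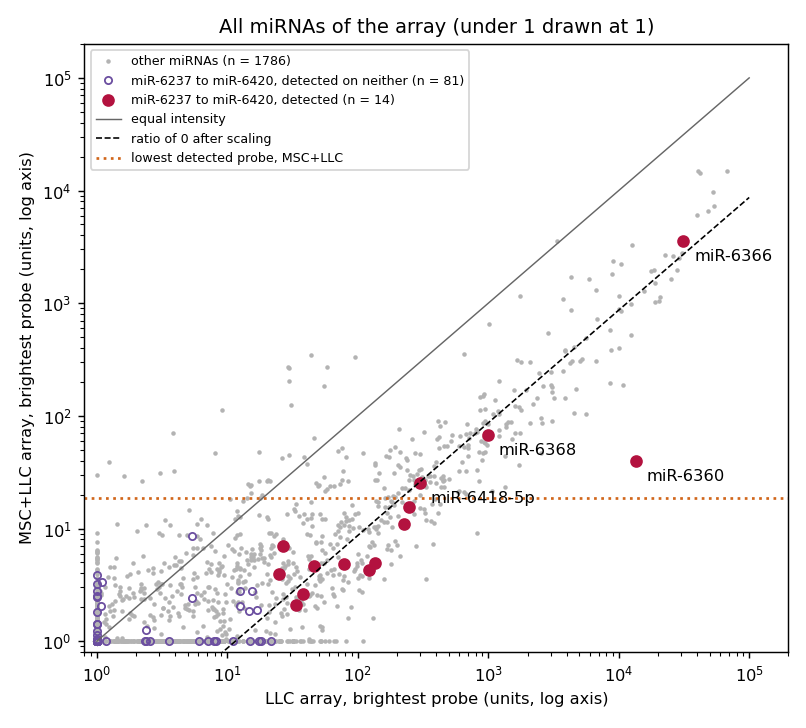
Intensity of the brightest probe of each of the 1881 miRNAs on the LLC array (horizontal axis) and on the MSC+LLC array (vertical axis), unscaled, on log axes with values under 1 drawn at 1. The 14 detected members are filled red, the 81 others open, and the dashed line marks a scaled ratio of 0; miR-6360 lies far below it while miR-6366, miR-6368 and miR-6418-5p lie near it.

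The log2 ratio of miR-6360 minus the median of the 240 miRNAs was -5.11 with scaling by 1 factor, which moves all miRNAs alike and so cannot change this difference. With quantile normalization, which can, it was -5.15. miR-6360 and miR-6368 were below 0 under all 8 scalings, while the sign of miR-6366 and of miR-6418-5p changed with the scaling. The ratio of miR-6360 ran from -3.85 with normexp to -8.53 with the hybridization controls. The hybridization controls moved the median of the 240 by -3.56, and with them miR-6366, miR-6368 and miR-6418-5p were at -3.16, -3.89 and -3.59.

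**Figure D4:**
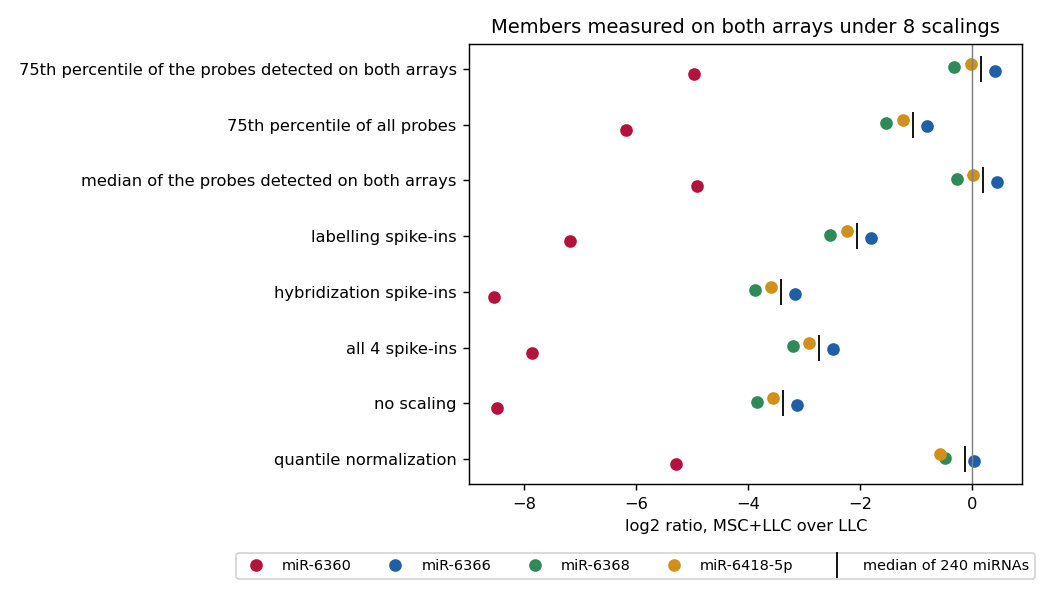
Log2 ratio (MSC+LLC over LLC, horizontal axis) of the 4 members measured on both arrays under 8 scalings (vertical axis), with the median of the 240 miRNAs as a black line. miR-6360 and miR-6368 lie below 0 under all 8, while miR-6366 and miR-6418-5p lie on either side of 0.

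The 10 members detected on the LLC array only were dim. The brightest probe of each read between 25 and 245 intensity units there, with a median of 62.4, and no probe of theirs read above 15.5 on the MSC+LLC array. Had they followed the bulk of the array, 8 of the 10 would have read at most 11.8 on the MSC+LLC array, below its lowest detected probe of 18.8. Their absence from that array is thus not a measured fall. At a scaled ratio of 0, only miR-6385 and miR-6370 would have had a probe above 18.8 there, at 21.3 and 19.8. The other probe of miR-6370 would have read 17.8. A reading above the lowest detected probe does not ensure detection: on the LLC array, where that probe read 20.9, miR-6416-3p was undetected at 21.6.

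miR-6385 read 245 ± 21.3 (15 spots) and 241 ± 22.8 (14 spots) on the LLC array. On the MSC+LLC array it read 13.1 ± 4.0 and 15.5 ± 3.32 (15 spots each), where 21.3 and 21.0 would follow from a ratio of 0. With the lowest detected probe in place of the value not measured, miR-6385 was at least 1.12-fold lower on the MSC+LLC array, a bound under 2-fold. The detection flag of the scanner software called it present there too, and its ratio under that rule was -0.69. miR-6370 read 228 ± 15.7 (15 spots) and 205 ± 9.24 (13 spots) on the LLC array, against 10.9 ± 4.97 and 11 ± 3.22 on the MSC+LLC array. With bounds counted, miR-6360 was still the 1 member at least 2-fold lower, against 5.38% of the 520 miRNAs seen on either array, and 0 members were at least 2-fold higher, against 16%.

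The other 8 members could not be followed on the dimmer array. miR-6349 read 136 ± 22.7 and miR-6394 122 ± 9.03 on the LLC array (15 spots each), and 4.98 ± 3.95 and 4.29 ± 3.75 on the MSC+LLC array, which is near the 3.38 ± 4.85 of its 400 negative control spots. miR-6391 read 78.6 ± 20.5 (14 spots) and 4.85 ± 3.67 (13 spots). The second probe of miR-6349 read 3.67 on the LLC array and that of miR-6391 read 3.73, so these detections rest on 1 probe. The second probe of miR-6394 was detected, at 100 ± 9.32.

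Nearer the limit, miR-6378 read 46.2 ± 5.19 and miR-6388 38.2 ± 4.59 on the LLC array (14 spots each). miR-6238 read 33.8 ± 3.38 (12 spots), miR-6348 26.6 ± 2.74 (14 spots) and miR-6399 25 ± 4.42 (10 spots). On the MSC+LLC array the same probes read 4.61, 2.01, 2.11, 6.99 and 3.97, all under its lowest detected probe. Of the 10 members detected on the LLC array only, 5 had all probes detected there and 4 a single probe.

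The remaining 81 members (85.3%) were detected on neither array, against 72.4% of all miRNAs on the array. On the LLC array 74 of them had no spot well above background, and 0 had one on the MSC+LLC array. Their 170 probes read from -5.42 to 21.6 on the LLC array, with a median of -1.50, and from -3.85 to 8.51 on the MSC+LLC array. The negative control spots of the LLC array read 1.35 ± 4.30. Most of the late entries, like most miRNAs of the array, were thus not detected in these serum exosomes. Readings under the lowest detected probe of the LLC array, 20.9, are printed but are not taken as levels of a miRNA.

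The undetected members nearest to the limit were miR-6416-3p, miR-6404 and miR-6402, with 33.3%, 20% and 13.3% of the spots of a probe well above background on the LLC array.
miR-6416-3p: gCAAAGAGcagcaaaaggaag
miR-6404: gUGGGAAGugacaagggguag
miR-6402: gAGCAGUUuucccaggaacccgc
The brightest probes read 21.6, 18 and 16.8 on the LLC array, and 0.15, 0.53 and 1.91 on the MSC+LLC array. miR-6404 is among the miRNAs that the text of the study names. It is named there as decreased in exosomes of hypoxic against normoxic cultured BMSCs, a comparison other than that of these serum arrays. The scanner software's own flag called these 3 present on the LLC array, together with miR-6240, miR-6359, miR-6401 and miR-6405, which brings its count to 21. The mature miR-6404 lies at chr7:143933171-143933191 on the plus strand, miR-6416-3p at chr7:64249989-64250009 on the minus strand within Trpm1, and miR-6402 at chr4:91373285-91373307 on the minus strand within Elavl2.

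At the edges of the range nothing was detected. miR-6237, the first member, read -1.65, -0.93 and 0.45 on the LLC array, and miR-6420, the last, read between -3.29 and -0.78. Just outside, miR-6236 read 17.1 and 19.0 on the LLC array and 5.44 and 5.06 on the MSC+LLC array, short of detection. The next entry above the range, miR-6481, read -3.01 and -3.00 on the LLC array.

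The detected members were rich in purines. The share of G and A was 71.4% in the median of the 11 detected members with a sequence (45.5 to 85.7), against 50% in the 70 not detected (13.6 to 85.7). The share of U was 14.3% against 26.7%, and that of C 9.52% against 21.7%. In the sequences above, miR-6385 and miR-6370 reach 85.7% G and A, and miR-6368 and miR-6418-5p 81.0%. The ranges overlapped. Length was nearly equal, at 21 and 22 bases. All comparisons of base content were chosen after the values were seen and are descriptions.

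The same difference was present in the rest of the array. Among other miRNAs the median share of G and A was 59.1% in the 400 detected on the LLC array and 45.8% in the 1127 not detected. Of members with at least 60% G and A, 8 of 20 (40%) were detected, and of the others 179 of 388 (46.1%). Below 60%, 3 of 61 members (4.92%) were detected, against 221 of 1139 other miRNAs (19.4%). Purine content is thus not particular to the late entries, and its part in detection was not tested. The undetected miR-6416-3p, miR-6404 and miR-6405, all called present by the scanner software on the LLC array, also held 85.7%, 81.0% and 78.3% G and A.

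**Figure D5:**
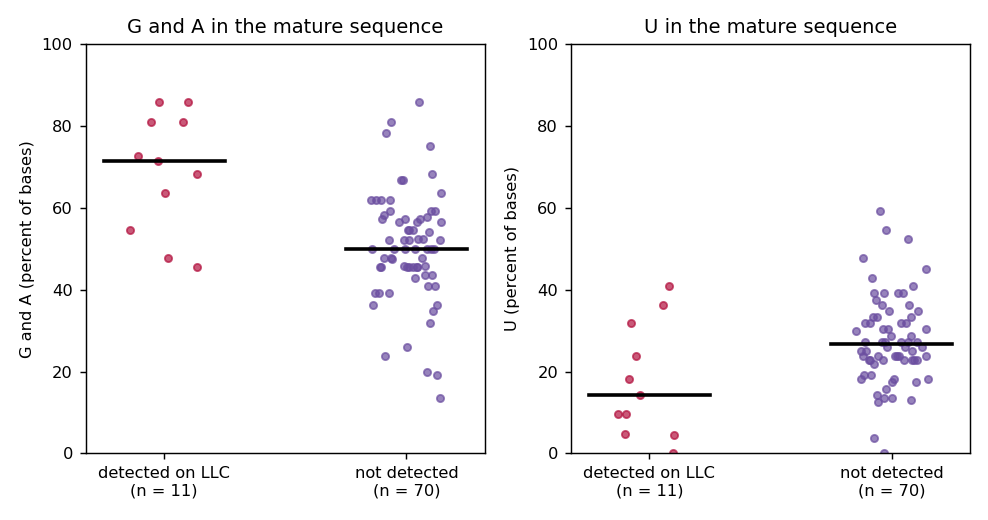
Share of G and A (left) and of U (right) in the mature sequence, in percent of bases, for the 11 members detected on the LLC array and the 70 not detected, with a bar at each median. For G and A the medians are 71.4% and 50%, for U 14.3% and 26.7%, and the ranges overlap.

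The 3 sequenced members measured on both arrays all hold the letters GGGGA. In miR-6418-5p they lie inside the seed, in miR-6366 and miR-6368 behind it. On the mature strand, 4 of 11 detected members (36.4%) and 2 of 70 undetected ones (2.86%) hold GGGGA. Among other miRNAs the shares were 9.5% of those detected on the LLC array and 3.02% of those not, and 4.85% of the 1608 miRNAs with a sequence. A run of G, GGGG, was found in 54.5% of the detected and 7.14% of the undetected members, and in 20% and 8.07% of the other miRNAs. Of the other miRNAs detected on the MSC+LLC array, 19 of 202 with a sequence (9.41%) held GGGGA. No sequence was found for miR-6360, so its motifs are not known here. These overlapping motifs were searched for after the values were seen.

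Seeds showed that the members are not a family. The 81 sequences held 69 different seeds, and 9 seeds were held by more than 1 member. Of the 11 detected members, 7 had a seed that no other miRNA with a sequence on the array holds. The closest other miRNA of the array differed from each of the 11 by 5 to 8 edits.

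The seed UGGGAAG is held by miR-6368, by miR-6404 (printed above) and by the miRNAs below, shown to compare members of one seed.
miR-6405: gUGGGAAGcagugggaagcagug
miR-3547-5p: gUGGGAAGagggguggggcccggga
miR-6405 was not detected and read 14.5 for LLC and 1.86 for MSC+LLC. miR-3547-5p, which is outside the range, read 1205 and 204 and had a scaled log2 ratio of 0.96 ± 0.12, against -0.32 ± 0.12 for miR-6368. The difference between these ratios is larger than the spread between spots. This pair, put together after the values were seen, thus had the same seed and different ratios under the main scaling. Nothing is read from it about other seeds.

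Other detected members share seeds with well known miRNAs, shown for comparison.
miR-206-3p: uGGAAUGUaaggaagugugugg
miR-6382: uGGAAUGUaaagagagcacacaag
miR-125b-5p: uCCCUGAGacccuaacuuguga
miR-6367: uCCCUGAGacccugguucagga
miR-6349 and the undetected miR-6382 have the seed of miR-206-3p, a miRNA of skeletal muscle. miR-206-3p read 202 for LLC and 36.7 for MSC+LLC, with a ratio of 1.07 ± 0.20. miR-6394 and the undetected miR-6367 have the seed of miR-125b-5p, a relative of lin-4 that is present in mesenchymal cells. miR-125b-5p read 861 and 147, with a ratio of 0.97 ± 0.18. Its seed is also held by miR-125a-5p, which read 16.1 and 5.24, and by miR-351-5p. Both were detected on neither array, as was miR-873a-5p, which has the seed of miR-6370. miR-206-3p and miR-125b-5p were thus higher on the MSC+LLC array after scaling and lower before it. miR-6349 and miR-6394 were under the limit there and have no ratio.

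The deposited log2 table gives the same members another look. Its values are the log2 of the scanner software's summed signal minus 7.02 for LLC and minus 3.48 for MSC+LLC, and an undetected miRNA stands there with a signal of 0.1. For the 74 members present on neither array by the software's flag, these constants alone give a difference of 3.54 in favour of MSC+LLC. Among the deposited values, 17 members were at least 2-fold lower in MSC+LLC, and for 16 of them the MSC+LLC value was the fixed 0.1. The 17th was miR-6360, with a difference of -5.26. For miR-6366 the difference was 0.08, for miR-6368 -0.64 and for miR-6418-5p -0.73.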

How the data were processed

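Exosomal RNA of 1 LLC and 1 MSC+LLC sample was hybridized to Agilent 1-colour (Cy3) mouse miRNA arrays, and groups were taken from the sample titles. Per the file headers, the authors used Feature Extraction 11.5.1.1 (10.7 per the labels), and the deposited scanner files hold background-subtracted spot intensity on a linear scale, with flags for outliers, saturation and signal well above background. The deposited series table holds log2 values that the authors normalized in GeneSpring, whose settings for these arrays were not given in the sources used here; its constants were found from the scanner files.

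Control spots and outlier spots were left out (2.25% of member spots on the LLC array, 2.42% on the MSC+LLC array), and 0 miRNA spots were saturated. Spots of a probe were averaged, arrays were scaled by their 75th percentile over probes that both arrays detected, and the log2 ratios of a miRNA's detected probes were averaged. The median coefficient of variation over spots of detected member probes was 9.38% and 11.1%. For a probe detected on 1 array, the bound used the lowest detected probe of the other array, or the probe's own signal there where that was higher. A single array per group allowed no test, SDs over spots are technical, and the number of arrays limits the precision. The functions were tested on simulated data.

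The members and lists were chosen with earlier results of these data known. Named were all members measured on both arrays, the 10 brightest detected on 1 array, miR-6404 and the 3 undetected members nearest the limit, the entries at the edges of the range, and members sharing a seed with a detected one; miRNAs outside the range with such a seed were added after their values were seen. Alternatives were other detection rules, scalings, background correction (normexp, offset 50), summaries of spots and probes, fold thresholds of 4 and 1.5 and the deposited values. The file headers name mm9, while sequences and coordinates are from RefSeq tables of GRCm38.p6, matched by miRNA name, and gene bounds in them carry no exons. Python 3.11.15, numpy 2.4.6, pandas 2.3.3, scipy 1.17.1, matplotlib 3.10.9, R 4.3.3 and limma 3.58.1 were used.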

Additional observations from a re-analysis of the deposited data

How the results depend on the processing

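No paired analysis was possible because LLC and MSC+LLC have a single array each. Between 13 and 21 members were detected on the LLC array and 4 or 5 on the MSC+LLC array under the detection rules tried. The median log2 ratio of the members measured on both arrays was -0.44 with the scanner software's flag, -0.53 with quantile normalization, -0.36 with the software's summed signal, -0.73 in the deposited table and 0.21 with normexp. Scaling by all probes gave a median of -1.39, with 3 members on both arrays at least 2-fold lower and 5 with bounds included. The labelling controls gave -2.38 with 4 and 8 lower, the hybridization controls -3.74 with 4 and 11, all 4 controls -3.06 with 4 and 9, and no scaling -3.70 with 4 and 10. These settings differ from the main one only in the factor between the arrays. With them the median log2 ratio of the 240 miRNAs was -1.07, -2.06, -3.42, -2.74 and -3.38, in the order named. The median miRNA measured on both arrays was thus itself at least 2-fold lower, so nothing is read from these counts about the members. With bounds included, 3 members were lower with the summed signal and 17 in the deposited table, where undetected miRNAs stand at 0.1. With normexp, 1 member, miR-6418-5p, was at least 2-fold higher, with and without bounds; the cause was not tested. In every setting that gives miR-6360 a ratio, that ratio was below 0. The dim MSC+LLC array limits what can be measured: 8 of the 10 members detected on the LLC array only lay too low to be followed there at a ratio of 0.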
